A study of Mus musculus with 7 samples.

Results

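The 6 regulators of endoderm described here, the transcription factors HNF4A, FOXA2, FOXA3, SOX17 and GATA6 and the transcriptional coactivator CITED1, were followed in mouse embryos lacking the gene Adnp. Members were the probe sets whose platform annotation gives 1 symbol only, equal to Hnf4a, Gata6, Sox17, Foxa2, Foxa3 or Cited1. This gave 11 of the 20380 probe sets with 1 symbol, for 6 of 12393 genes: 4 probe sets for Hnf4a, 2 each for Gata6 and Sox17, and 1 each for Foxa2, Foxa3 and Cited1. Adnp encodes a homeodomain and zinc-finger protein, and the study asked which genes act downstream of it.

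RNA came from whole C57BL/6 embryos of mixed sex on embryonic day 9. Sex-linked RNA, given further on, was not balanced over the genotypes. Both Adnp copies were lost in the knockout (2 arrays, 4 embryos) and 1 in the heterozygotes (3 arrays, 6 embryos), and wild-type littermates carried both (2 arrays, 4 embryos). Each array held a pool of 2 embryos of one genotype, so the replicate is the pool, and the embryos had been dissected away from yolk sac and amnion and typed from yolk sac DNA. The loss is in every cell and the RNA is of the whole embryo, so no value below assigns a change to one tissue. Values are MAS5 signals, the brightness of a probe set scaled on each array to the same overall level. Median signals were 55.5 to 57.5 on the 7 arrays. The only probe set for Adnp is also annotated to a second gene, so the loss of Adnp RNA was not checked here and the genotypes rest on the labels.

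Endoderm arises in the mouse in separate waves. Primitive endoderm, which needs GATA6, gives rise to the visceral endoderm that wraps the early embryo and later lines the yolk sac, and to the parietal endoderm on the outer membrane. Definitive endoderm, which needs SOX17 and FOXA2, forms the gut tube. HNF4A is a nuclear receptor that visceral endoderm needs in order to make secreted proteins such as apolipoproteins and transthyretin, while CITED1 binds no DNA itself and links CBP and p300 to other factors.

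Promoter sequence from the RefSeq table of build GRCm38.p6 shows what precedes the start sites of the members with the largest differences in signal. The table gave 9 windows of 250 bases upstream of an annotated start for 4 members, Hnf4a (2), Foxa2 (3), Foxa3 (1) and Cited1 (3), and none is shown for Sox17 and Gata6. Letters in capitals match one of 4 short motifs searched on both strands: AGATAA, bound by GATA factors, GTTAAT, an HNF1 half-site, TGTTTNC, bound by FOXA factors, and TGNNCTTTG, bound by HNF4A. Of 32536 windows of this length in the table, 9.97% held the GATA motif, 6.47% the HNF1 motif, 17.8% the FOXA motif and 5.51% the HNF4 motif. The motifs were chosen with results of these data known, and a match is a description and not a binding site. Both Hnf4a windows, the first Cited1 window and the window of Apoa1, a textbook HNF4A target described further on, read 5′ to 3′ on the strand of the gene:
Hnf4a, chr2:163506607-163506856 (+): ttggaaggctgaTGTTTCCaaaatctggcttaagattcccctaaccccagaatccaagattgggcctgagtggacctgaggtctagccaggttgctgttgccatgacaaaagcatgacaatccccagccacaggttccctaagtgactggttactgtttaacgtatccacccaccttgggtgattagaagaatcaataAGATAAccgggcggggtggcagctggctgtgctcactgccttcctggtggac
Hnf4a, chr2:163546905-163547154 (+): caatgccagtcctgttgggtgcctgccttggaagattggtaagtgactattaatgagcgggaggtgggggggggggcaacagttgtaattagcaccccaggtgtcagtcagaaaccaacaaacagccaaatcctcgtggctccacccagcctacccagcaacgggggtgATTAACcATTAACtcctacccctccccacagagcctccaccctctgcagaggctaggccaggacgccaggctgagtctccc
Cited1, chrX:102252182-102252431 (-): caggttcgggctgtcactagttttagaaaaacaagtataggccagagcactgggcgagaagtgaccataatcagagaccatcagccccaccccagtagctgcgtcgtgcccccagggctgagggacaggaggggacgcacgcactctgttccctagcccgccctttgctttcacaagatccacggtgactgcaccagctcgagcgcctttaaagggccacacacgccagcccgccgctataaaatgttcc
Apoa1, chr9:46228380-46228629 (+): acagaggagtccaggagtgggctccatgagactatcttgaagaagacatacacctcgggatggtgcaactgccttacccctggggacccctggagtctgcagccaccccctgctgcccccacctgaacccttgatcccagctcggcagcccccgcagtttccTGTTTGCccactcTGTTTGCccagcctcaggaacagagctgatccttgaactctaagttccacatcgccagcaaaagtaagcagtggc
Counted from 1 at the 5′ end, the first Hnf4a window held 1 FOXA match at base 13 and 1 GATA match at base 199. The second held 2 HNF1 matches at bases 170 and 177, and the Apoa1 window held 2 FOXA matches at bases 163 and 176. No matches overlapped in these windows. The HNF4 motif had no match in the Apoa1 window or in any of the 9 member windows. The search found only copies of the 4 short strings, so sites that differ from them were missed. A window without a match can still hold such a site. The 3 Cited1 windows and the Foxa3 window held no match, and 1 of the 3 Foxa2 windows held 1 GATA and 1 HNF1 match.

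Cited1, whose loss in mice disturbs the placenta, was higher in the knockout than in both other genotypes, and of the 5 members tested it alone passed. Its signal was 272.7 and 333.6 in the knockout pools, against 91.7, 97.6 and 66.7 in heterozygotes and 97.4 and 80.0 in wild type. Both knockout pools lay far above all 5 others, and the heterozygous and wild-type pools overlapped. The means were 303.2 ± 43.1 in the knockout (SD, n = 2), 85.3 ± 16.4 in heterozygotes (n = 3) and 88.7 ± 12.3 in wild type (n = 2), so the knockout mean was 3.42 times the wild-type and 3.55 times the heterozygous mean.

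Differences were tested with limma on log2(signal + 3.8), a scale that understates the change of dim genes, over the 8019 genes bright enough to be tested. Cited1 rose against wild type by 1.73 (SE 0.21, 95% interval 1.27 to 2.19, adjusted p = 0.00244), and this was number 38 of the 8019 differences counted from the highest. Against heterozygotes it rose by 1.79 (SE 0.19, 95% interval 1.37 to 2.22, adjusted p = 0.000853). The knockout pools are the same in both comparisons, so these are not independent. Of the 5 members tested 1 passed in each, where 3.32% of all genes passed against wild type and 5.86% against heterozygotes. In RNA of whole embryos, more cells of a type and more RNA per cell cannot be told apart, and the summed signal of visceral endoderm genes, given further on, was also highest in both knockout pools. Cited1 passed with each of the 7 arrays left out in turn, with adjusted p from 0.00224 to 0.0489 against wild type and from 0.000996 to 0.0274 against heterozygotes.

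**Figure D1:**
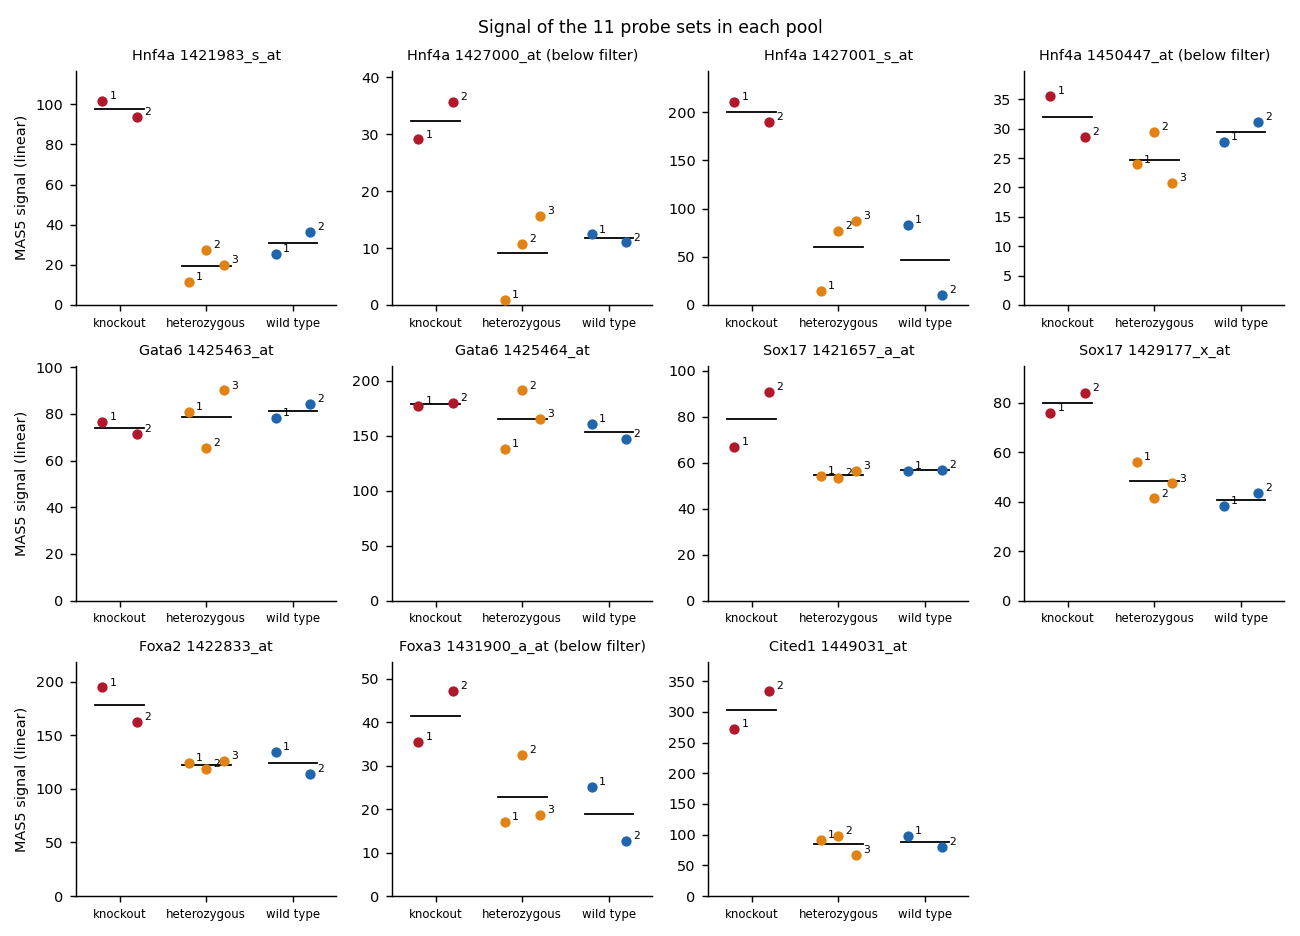
Signal of each of the 11 member probe sets on every array, 1 panel per probe set, with knockout pools left, heterozygous pools in the middle and wild-type pools right; points are pools of 2 embryos, numbered by replicate, and bars are group means. Both Cited1 points of the knockout, 272.7 and 333.6, stand above all 5 other points, while the Gata6 points of the genotypes overlap.

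Cited1 lies on the X chromosome, and the pools differed in sex-linked RNA. Xist, the RNA of the inactive X, read 510.3 and 58.8 in the knockout, 595.0, 62.0 and 548.2 in heterozygotes and 801.0 and 844.4 in wild type on its probe set 1436936_s_at. Eif2s3y, a Y-linked gene, read 40.8 and 59.5 in the knockout, 28.2, 44.3 and 21.9 in heterozygotes and 0.8 and 0.3 in wild type. All knockout and heterozygous pools read higher in Eif2s3y than the wild-type pools, and 2 of the 3 heterozygous pools read lower than both knockout pools. The second knockout and the second heterozygous pool were both low in Xist, with a Cited1 signal of 333.6 and 97.6. Both wild-type pools had the highest Xist and the lowest Eif2s3y signals of the series. The genotypes were thus not balanced in sex-linked RNA, and these sex-linked differences run along every comparison with wild type. Their part in the Cited1 difference, or in that of any other gene, was not tested.

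Hnf4a was represented by its brightest probe set, 1427001_s_at, and its 4 probe sets did not behave alike. On 1427001_s_at the signal was 210.9 and 190.2 in the knockout, against 15.0, 76.8 and 87.2 in heterozygotes and 83.1 and 10.6 in wild type. Both knockout pools lay above the other 5, which spread over a wide range within each genotype. The knockout mean of 200.6 ± 14.6 (SD, n = 2) was 3.36 times the heterozygous mean of 59.7 ± 39.0 (n = 3) and 4.28 times the wild-type mean of 46.9 ± 51.3 (n = 2).

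The Hnf4a difference from wild type was 2.53 on the log2 scale (SE 0.82, 95% interval 0.70 to 4.36, limma, adjusted p = 0.129), number 20 from the highest, and it did not pass. The difference from heterozygotes was 1.98 (SE 0.75, 95% interval 0.31 to 3.65, adjusted p = 0.153). The wild-type pools decided the first value: it was 1.23 without the second wild-type pool (adjusted p = 0.605) and 3.83 without the first (adjusted p = 0.0321). It also passed without the first heterozygous pool, at an adjusted p of 0.0463 with the same 2.53. Against heterozygotes the difference was 1.25 without the first heterozygous pool (adjusted p = 0.302), and it did not pass whichever of the 7 arrays was left out.

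A second Hnf4a probe set, 1421983_s_at, varied less within genotypes. It read 101.6 and 93.5 in the knockout, against 11.6, 27.5 and 19.9 in heterozygotes and 25.4 and 36.4 in wild type. No pool of another genotype came near the knockout pools. With every probe set taken as a feature of its own, the knockout was above heterozygotes by 2.17 (SE 0.32, limma, adjusted p = 0.0104), which passed, and above wild type by 1.56 (SE 0.35, adjusted p = 0.0550), which did not. The call against heterozygotes was lost without either knockout pool (adjusted p = 0.102 without the first and 0.0996 without the second). Against wild type this probe set passed without the first (adjusted p = 0.0218) or second (adjusted p = 0.0386) heterozygous pool. It reached the brightness filter of 38.1 (signal plus pseudocount) only through the knockout pools, since the other 5 averaged 26.6, so the filter was not independent of the difference. With no filter, the adjusted p was 0.0286 against heterozygotes and 0.110 against wild type.

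The other Hnf4a probe sets were too dim for the test. Probe set 1427000_at read 29.1 and 35.7 in the knockout, against 0.9, 10.7 and 15.6 in heterozygotes and 12.4 and 11.0 in wild type, again with both knockout pools highest. Probe set 1450447_at read 35.5 and 28.6 in the knockout, against 23.9, 29.4 and 20.7 in heterozygotes and 27.8 and 31.1 in wild type, and the genotypes overlapped. With the filter removed, their differences from wild type were 1.22 (adjusted p = 0.420) and 0.10 (adjusted p = 0.932). An ending in s_at marks probes shared by several transcripts, but which Hnf4a transcripts each probe set reads was not stated.

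Hnf4a lies on chromosome 2, as does Adnp, with 96 protein-coding genes between them in the RefSeq gene table. Of the 38 that were measured, 2 rose and 3 fell against wild type, and their median difference was -0.12, against -0.01 for all genes tested. These are 5.26% and 7.89% of the 38, where 1.96% of all genes rose and 1.36% fell. Foxa2 lies on chromosome 2 as well.

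Foxa2 and Foxa3 encode related forkhead proteins that open chromatin in endoderm. The signal of Foxa2 was 194.7 and 162.4 in the knockout, against 123.9, 118.3 and 125.9 in heterozygotes and 134.6 and 114.3 in wild type. Both knockout pools were above the other 5, by less than the gap seen for Cited1. The log2 difference of 0.51 from wild type (SE 0.16, 95% interval 0.15 to 0.86, limma, adjusted p = 0.117) and that of 0.52 from heterozygotes (SE 0.14, 95% interval 0.20 to 0.84, adjusted p = 0.0622) did not pass.

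Foxa3, which acts with HNF4A in liver, had 1 dim probe set and did not enter the test. It read 35.4 and 47.3 in the knockout, against 17.0, 32.4 and 18.7 in heterozygotes and 25.1 and 12.7 in wild type. The knockout pools were again the highest, though the lower one stood only just above the second heterozygous pool. With the filter removed, the difference from wild type was 1.04 (SE 0.41, limma, adjusted p = 0.279) and that from heterozygotes 0.80 (SE 0.38, adjusted p = 0.315).

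Sox17, whose product also acts in the endothelium of arteries, was measured by 2 probe sets past the filter. The representing probe set, 1421657_a_at, read 67.0 and 90.8 in the knockout, against 54.3, 53.2 and 56.4 in heterozygotes and 56.4 and 56.8 in wild type. The 5 other pools lay close together, and the spread was between the knockout pools. Its log2 differences were 0.44 from wild type (SE 0.21, 95% interval -0.03 to 0.90, limma, adjusted p = 0.293) and 0.49 from heterozygotes (SE 0.19, 95% interval 0.06 to 0.91, adjusted p = 0.165).

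The second Sox17 probe set, 1429177_x_at, read 75.8 and 83.8 in the knockout, against 55.9, 41.3 and 47.3 in heterozygotes and 38.1 and 43.4 in wild type. Here the knockout pools were close together and above all others. With every probe set as a feature, the difference was 0.91 from wild type (SE 0.22, limma, adjusted p = 0.0709) and 0.69 from heterozygotes (SE 0.20, adjusted p = 0.0894), and neither passed. An ending in x_at marks probes that may also bind RNA of other genes.

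Gata6, the member needed first, for primitive endoderm itself, showed no difference that passed. Its representing probe set, 1425464_at, read 177.2 and 180.1 in the knockout, against 138.1, 191.4 and 165.7 in heterozygotes and 160.9 and 146.9 in wild type. Its second, 1425463_at, read 76.7 and 71.3 in the knockout, against 80.9, 65.3 and 90.1 in heterozygotes and 78.4 and 84.3 in wild type. On both, the knockout pools lay within the range of the heterozygous pools. The difference from wild type was 0.21 on the first (SE 0.17, 95% interval -0.16 to 0.59, limma, adjusted p = 0.545) and -0.13 on the second (adjusted p = 0.781). From heterozygotes it was 0.12 on the first (SE 0.15, 95% interval -0.22 to 0.47, adjusted p = 0.684), and the interval from wild type still holds the Foxa2 difference of 0.51.

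**Figure D2:**
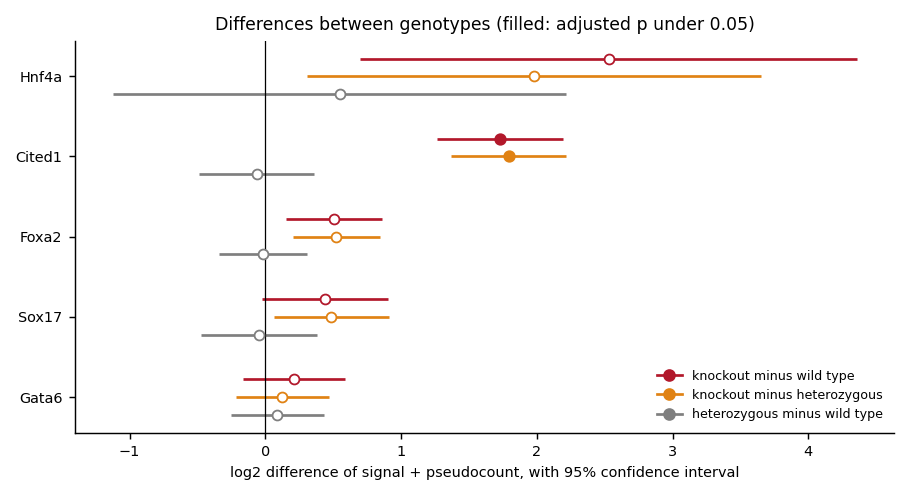
Log2 differences of the 5 tested members, knockout minus wild type, knockout minus heterozygous and heterozygous minus wild type, with 95% intervals from limma; filled points passed the threshold. Cited1 has narrow intervals far from 0, at 1.73 and 1.79, while Hnf4a has a larger difference from wild type, 2.53, with an interval from 0.70 to 4.36.

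Both knockout pools exceeded all 5 others on 8 of the 11 member probe sets and for 4 of the 5 tested genes, Gata6 being the other. Among all genes tested, 14.2% had both knockout pools above the rest. The 8 probe sets include several of Hnf4a and of Sox17 and dim ones below the filter. They are not separate results, and the share over all probe sets was not computed. The median difference of all genes was -0.01 from wild type and -0.02 from heterozygotes, and the median size of a difference from wild type was 0.19.

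No member was called different between heterozygotes and wild type, in a comparison where 0% of the 8019 genes passed and 284 genes had an unadjusted p under 0.05, none of them a member. The difference, heterozygous minus wild type, was -0.06 for Cited1 (95% interval -0.49 to 0.36), 0.55 for Hnf4a (-1.13 to 2.22), -0.02 for Foxa2 (-0.34 to 0.31), -0.05 for Sox17 (-0.47 to 0.38) and 0.09 for Gata6 (-0.25 to 0.43). The limma adjusted p was 0.999 for each. The interval for Hnf4a is wide enough to hold a large change in either direction.

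Of 19 other endoderm regulators, 8 were bright enough to be tested, and none passed in any comparison. Against wild type, 3 of the 8 had an unadjusted p under 0.05, as had 19.1% of all genes. Gata4, which acts beside GATA6 in primitive endoderm and heart, read 131.8 and 139.8 in the knockout, against 101.2, 103.2 and 101.0 in heterozygotes and 97.7 and 89.8 in wild type. Its difference was 0.52 from wild type (SE 0.15, limma, adjusted p = 0.0971) and 0.40 from heterozygotes (adjusted p = 0.119). Hhex, a homeodomain factor of anterior visceral endoderm and foregut, differed from wild type by 0.50 (adjusted p = 0.227), and Sox7, a relative of Sox17 in parietal endoderm and vessels, by 0.45 (adjusted p = 0.377). Nr2f2, a nuclear receptor of veins and mesenchyme, differed by -0.37 (adjusted p = 0.203).

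Summed over the measured genes of this list, the signal was 820.4 and 830.6 in the knockout, 923.1, 845.1 and 822.3 in heterozygotes and 811.3 and 780.4 in wild type. Nr2f2, the brightest of these genes, read 241.6 and 239.2 in the knockout pools. It read 363.7, 308.3 and 306.4 in heterozygotes and 280.4 and 346.6 in wild type. Its lower knockout signal enters these sums, which therefore do not describe the other genes of the list. Of the 8 genes, 6 had a positive difference from wild type (median 0.15) and 4 from heterozygotes (median 0.02). Another 9 regulators were below the filter, and 2 had no probe set of 1 symbol. Among the dim ones, named after their values were seen, Cdx2, a factor of trophoblast and hindgut, read 69.0 and 98.3 in the knockout, against 4.4, 23.9 and 24.3 in heterozygotes and 26.6 and 11.1 in wild type. Lhx1, a homeodomain factor of anterior visceral endoderm and kidney, read 35.0 and 31.9 in the knockout, against 9.5, 8.2 and 15.2 in heterozygotes and 15.5 and 7.4 in wild type. Both had the knockout pools highest, as did Prox1 by a small margin. These genes did not enter the main test, and their differences with the filter removed are not given here. The share of such genes among all dim genes was not computed. In the other 6 dim regulators the knockout pools overlapped the rest, and the knockout mean was below wild type in some, such as Nr5a2 (24.4 against 35.5) and Cebpa (11.6 against 22.1).

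The partners of GATA and CITED proteins showed no call either, with 8 of 10 tested and a median difference of -0.06 from wild type and 0.03 from heterozygotes. Ncoa1, a coactivator of nuclear receptors, differed from wild type by -0.58 (adjusted p = 0.257), and Tfap2a, a factor that CITED proteins coactivate, by 0.54 (adjusted p = 0.296). The differences of Cited4, a relative of Cited1, and Zfpm1, which binds GATA factors, were -0.28 (adjusted p = 0.777) and 0.26 (adjusted p = 0.477).

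Of 7 genes known to need HNF4A in visceral endoderm, 5 were tested, and 4 of them rose against wild type, with a median log2 difference of 2.99. Against heterozygotes 5 of 5 rose, with a median of 3.32. In the same comparisons 1.96% and 3.11% of all genes rose. Apob reached the brightness filter only through the knockout pools, the other 5 averaging 31.1 as signal plus pseudocount. Of the other 4 genes, 3 rose against wild type (median 3.12) and 4 against heterozygotes (median 3.74).

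Apoa1, the main protein of high-density lipoprotein, read 1395.7 and 1706.1 in the knockout, against 11.8, 73.8 and 65.3 in heterozygotes and 142.7 and 14.2 in wild type. Ttr, the thyroid hormone carrier transthyretin, read 1936.8 and 2653.5 in the knockout, against 44.7, 431.3 and 86.3 in heterozygotes and 665.5 and 60.8 in wild type. The first wild-type pool was high and the second low in both genes, as on Hnf4a probe set 1427001_s_at (83.1 and 10.6), whereas on 1421983_s_at the first was the lower (25.4 and 36.4).

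The rise of Apoa1 was 4.91 against wild type (SE 0.89, limma, adjusted p = 0.0171) and 5.14 against heterozygotes (adjusted p = 0.00714). Apob, the structural protein of low-density lipoprotein, rose by 2.99 (SE 0.40, adjusted p = 0.00392) and 3.32 (adjusted p = 0.000977). For Rbp4, the retinol carrier, the rises were 2.79 (SE 0.65, adjusted p = 0.0462) and 3.28 (adjusted p = 0.0123). Ttr passed against heterozygotes, with a difference of 4.20 (adjusted p = 0.0340), but not against wild type, with 3.45 (SE 1.05, adjusted p = 0.109).

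These counts rest on few pools. Of the 4 rises against wild type, the count was 0 without the second knockout pool, 1 without the first knockout or the second wild-type pool, and 2 without heterozygous pool 3. The 5 rises against heterozygotes became 1 without either knockout pool.

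All 5 of these genes also belong to the wider list of visceral endoderm genes, which follows genes the study itself named on these arrays and so is no independent evidence. Of 17 listed, 14 were tested. Against wild type 11 rose, with a median of 3.00, and against heterozygotes 14 rose, with a median of 3.44. Apob, Apoc2, Cubn, Amn and Spink1 reached the filter only through the knockout pools, so that these counts and medians partly follow from the filter. Of the 9 genes bright enough in the other 5 pools, 8 rose against wild type (median 2.66) and 9 against heterozygotes (median 3.24). With no filter, 8 and 12 of the 15 genes with a probe set rose. The rise against wild type was 4.45 for Spink1, a secreted trypsin inhibitor (SE 0.82, limma, adjusted p = 0.0181), while it was 4.08 for Cubn, the endocytic receptor cubilin (SE 0.53, adjusted p = 0.00365). Apoc2, an activator of lipoprotein lipase, differed from wild type by 3.95 without passing (SE 1.26, adjusted p = 0.122) and rose against heterozygotes by 4.92 (adjusted p = 0.0365).

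The summed signal of the visceral endoderm genes was 11575.7 and 13893.0 in the knockout, against 910.2, 2012.4 and 1136.5 in heterozygotes and 3185.7 and 854.1 in wild type. The embryos had been separated from the yolk sac, where this tissue lies. A sum of signals includes background, so its level in the other 5 pools does not show how much of this tissue they held. Within wild type the first pool was the higher in the visceral endoderm sum and in Hnf4a probe set 1427001_s_at. Within the heterozygotes the first was the lowest in both. The highest heterozygous pool was the second in the sum but the third on 1427001_s_at (87.2). On Hnf4a probe set 1421983_s_at the first wild-type pool was the lower (25.4 and 36.4). The part of the visceral endoderm RNA in the members' differences was not tested. Against wild type the 11 rises became 2 without the second knockout pool and 6 without either the first knockout or the second wild-type pool, and against heterozygotes the 14 became 5 without either knockout pool.

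**Figure D3:**
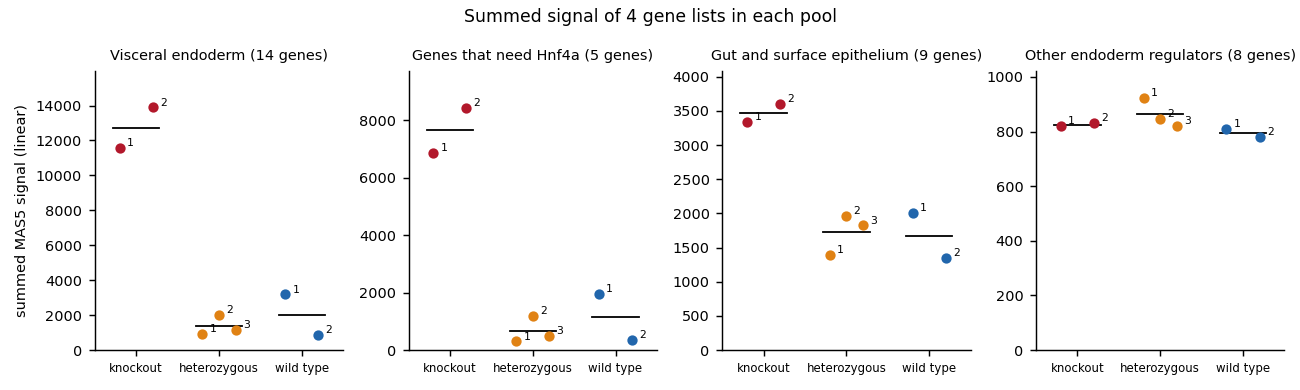
Summed signal of the measured genes of 4 lists (visceral endoderm, genes that need Hnf4a there, gut and surface epithelium, other endoderm regulators) on every array, with knockout pools left, heterozygous pools in the middle and wild-type pools right. The visceral endoderm sum is 11575.7 and 13893.0 in the knockout and at most 3185.7 elsewhere. The sum of the other endoderm regulators lies between 780.4 and 923.1 on all arrays. It includes Nr2f2, the brightest gene of that list, which read lower in both knockout pools than in all others.

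Of 9 tested genes of gut and surface epithelium, a list that includes derivatives of the definitive endoderm, 6 rose against wild type (median 1.08) and 7 against heterozygotes (median 1.02). Over all genes, 1.96% and 3.11% rose. The list holds genes of several epithelia, so these counts do not assign the rises to definitive endoderm. The summed signal of visceral endoderm genes was also highest in both knockout pools. The differences of Cldn4 and Nepn, named after their values were seen, were -0.04 (adjusted p = 0.958) and -0.11 (adjusted p = 0.902) from wild type. Krt8, a keratin of simple epithelia, rose by 1.46 (SE 0.29, limma, adjusted p = 0.0240) and 1.51 (adjusted p = 0.0102). The epithelial cadherin gene Cdh1 rose against heterozygotes by 1.30 (adjusted p = 0.0402), and its difference of 1.36 from wild type did not pass (SE 0.34, adjusted p = 0.0597). The summed signal was 3336.1 and 3604.0 in the knockout, against 1394.7, 1966.9 and 1823.0 in heterozygotes and 2003.6 and 1344.4 in wild type. The count against wild type was 0 without the first or second knockout pool or the second wild-type pool. That against heterozygotes was 0 without either knockout pool and 4 without heterozygous pool 1 or 3.

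Lists of other tissues in or beside the embryo gave few calls. Over all genes, 1.36% fell against wild type and 2.76% against heterozygotes. In parietal endoderm, which also expresses GATA6 and SOX17, 1 of 8 genes fell against wild type and none rose. This was Snai1, a repressor of epithelial genes that mesoderm also makes, with -1.23 (SE 0.18, limma, adjusted p = 0.00620), and the laminin gene Lamb1 differed by 0.43 (adjusted p = 0.239). In endothelium, which expresses SOX17, 1 of 11 fell, the sialomucin gene Emcn with -1.23 (SE 0.19, adjusted p = 0.00848). The receptor gene Tie1 differed by -0.62 (adjusted p = 0.266). Each of these lists held 0 calls without the second knockout or the second wild-type pool.

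In notochord and floor plate, which express FOXA2, 2 genes were tested and none passed against wild type. Ntn1, the axon guidance protein netrin, differed by -0.37 from wild type (limma, adjusted p = 0.177) and fell against heterozygotes by 0.48 (adjusted p = 0.0491). That call was kept when heterozygous pool 2 was the array left out and was lost when any other array was. Chrd, the BMP inhibitor chordin, differed from wild type by -0.24 (adjusted p = 0.672). In heart, which expresses GATA6, 2 of 9 genes fell against wild type and none rose. These were Myl2, a ventricular myosin light chain, with -2.59 (adjusted p = 9.35e-05) and Nppa, an atrial peptide hormone, with -2.08 (adjusted p = 0.000744).

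In the lists of trophoblast, decidua and primitive erythroid cells, 2, 3 and 6 genes were tested, and none passed in any comparison. Plac1 and Hand1, from the trophoblast list, differed from wild type by 0.84 (limma, adjusted p = 0.0596) and 0.17 (adjusted p = 0.714). Prl8a2, a prolactin relative of the decidua, read 46.1 and 138.4 in the knockout, against 828.6, 37.6 and 27.4 in heterozygotes and 37.4 and 16.2 in wild type, with 1 heterozygous pool far above the rest. Dcn, a proteoglycan of decidua and other connective tissue, differed from wild type by 0.32 (adjusted p = 0.644). The erythroid factor genes Klf1 and Gata1 differed by -0.53 (adjusted p = 0.375) and -0.47 (adjusted p = 0.259).

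**Figure D4:**
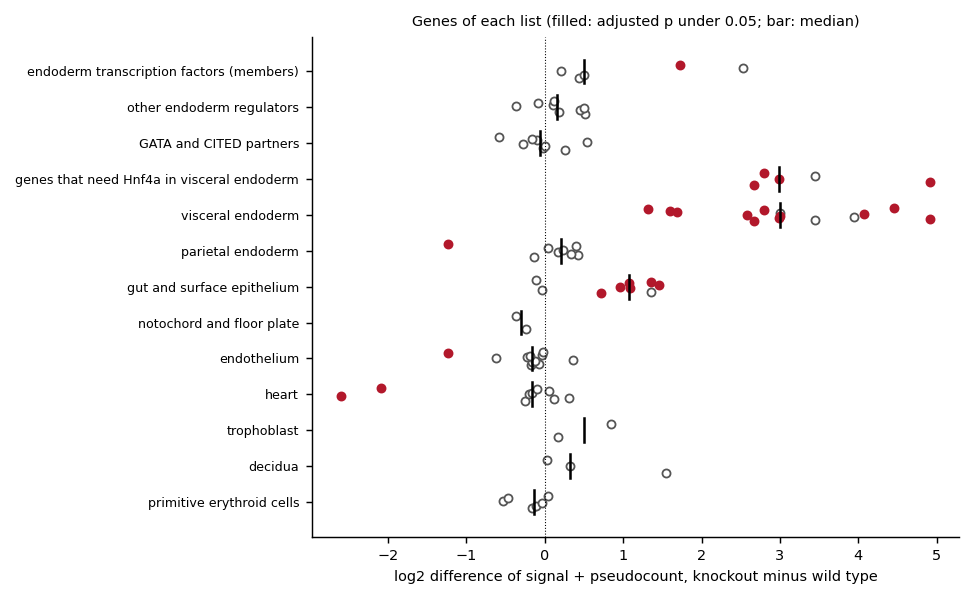
Log2 difference, knockout minus wild type, of every measured gene among the members and in each list, with a bar at the median; filled points passed the limma threshold. Visceral endoderm genes centre on 3.00 and gut and surface epithelium genes on 1.08, while the other endoderm regulators centre on 0.15 with none filled.

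For each tested member, the 3 genes whose log2 signal followed it most closely over the 7 arrays were found by the root mean square difference after centring each gene on its own mean. The nearest genes to Cited1 were Morc4 (0.17), Ctsc (0.18) and Bnip3 (0.18), against a median of 0.85 over all genes. Those nearest to Hnf4a were Car4 (0.61), Rrp9 (0.68) and Trim6 (0.68), against a median of 1.42, so no tested gene followed Hnf4a as closely as several followed Cited1. Foxa2 was nearest to Zfp185 (0.057), Card10 (0.069) and Lamp2 (0.071), against 0.31. For Sox17 these were Fam83h (0.064), Dusp10 (0.080) and Anxa6 (0.080), against 0.31, and for Gata6 Rpl14 (0.057), Tex10 (0.057) and Afg3l1 (0.059), against 0.24. The measure is small for members that vary little, and the members' own root mean squares were 0.82 for Cited1, 1.41 for Hnf4a, 0.25 for Foxa2, 0.24 for Sox17 and 0.15 for Gata6.

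**Figure D5:**
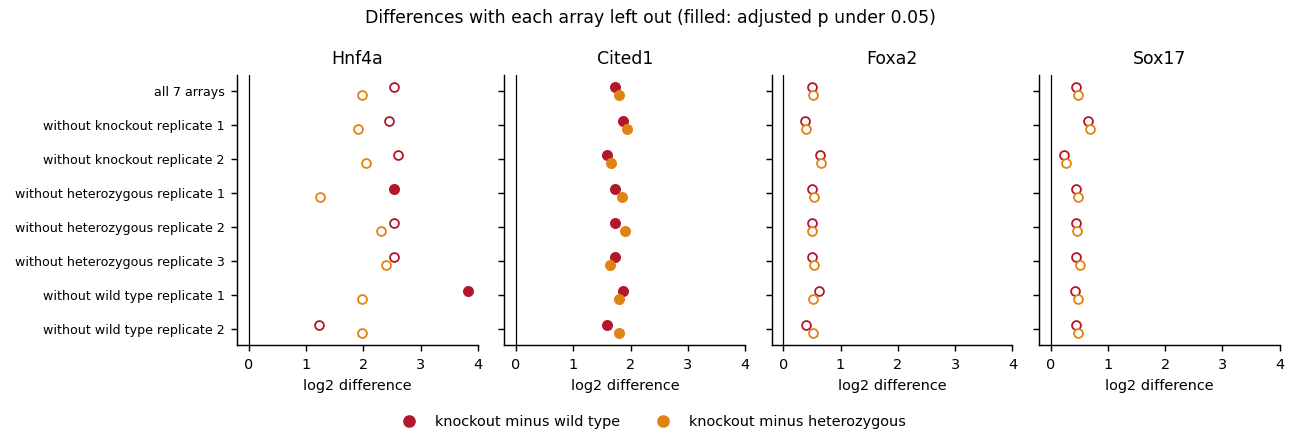
Log2 difference, knockout minus wild type and knockout minus heterozygous, of Hnf4a, Cited1, Foxa2 and Sox17 with all 7 arrays and with each array left out in turn; filled points passed the limma threshold. Cited1 stays between 1.59 and 1.87 against wild type and passes every time, whereas Hnf4a ranges from 1.23 to 3.83.

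Foxa2, Sox17 and Gata6 did not pass whichever of the 7 arrays was left out. Against wild type their differences ran from 0.38 to 0.63 for Foxa2, from 0.23 to 0.65 for Sox17 and from 0.15 to 0.28 for Gata6. Against heterozygotes they ran from 0.39 to 0.65, from 0.28 to 0.70 and from 0.00 to 0.23.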

How the data were processed

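RNA of 7 pools of mouse embryos was read on Affymetrix 430A arrays. The authors deposited 1 linear intensity per probe set and array, from MAS5 according to the submitters' processing notes. Its version and the build behind the annotation were not stated. Of 22690 probe sets, 64 were controls, 691 had several symbols and 1555 none listed. A pseudocount of 3.8, the 10th percentile of the table, was added before log2. The brightest probe set stood for its gene, and genes under the 40th percentile (38.1 as signal plus pseudocount) were left out. One limma fit (3.58.1, R 4.3.3; lmFit, eBayes with trend) over all 7 arrays had genotype as its only term, 4 residual and 6.19 prior degrees of freedom. P-values are two-sided, Benjamini-Hochberg adjusted over 8019 genes, with a threshold of 0.05. The fit was tested on simulated data. Pools came from different embryos of unstated litters, so p-values measure the spread between these pools.

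The members and lists were chosen with earlier results of these data known. By rule the text names every member probe set, the 4 measured genes with the largest absolute difference from wild type in each of the lists of regulators, partners, HNF4A-dependent and visceral endoderm genes, and 2 from each other list. Alternatives covered the pseudocount, filter, quantile normalization, trend, genotypes in the fit, replicate block, probe set choice, threshold and each array left out. Leaving arrays out for the second Hnf4a probe set was added after seeing the data.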

Additional observations from a re-analysis of the deposited data

How the results depend on the processing

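Cited1 passed in both knockout comparisons under all 16 settings besides the main one. Its adjusted p was 0.00159 to 0.0130 against wild type and 0.000539 to 0.0160 against heterozygotes over the 9 that keep all arrays. Gata6 and Sox17 passed under none of the 16, and Foxa2 only with a threshold of 0.10. Counts over all genes moved far more. Against wild type 266 genes passed, but 161 without the filter, 174 without the trend, 72 with the replicate block and 562 with a threshold of 0.10, and 36 to 417 with an array left out. Against heterozygotes 470 passed, but 306, 262, 76 and 962 under the same 4 settings, and 67 to 545 with an array left out. The members past the threshold against wild type were 1 to 2 with an array left out, Hnf4a being the second. Against heterozygotes they were 2 with every probe set as a feature (Hnf4a) and 2 with a threshold of 0.10 (Foxa2, adjusted p = 0.0622).

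Same-numbered wild-type and heterozygous pools deviated from their genotype means with correlations of -0.294 and -0.284, and wild-type and knockout pools with -0.0538. For heterozygous and knockout pools the correlations were -0.00018 and 0.0047. Deviations of 2 pools about their mean mirror each other, so these values cannot settle whether the replicate numbers pair the pools. With the numbers as a block, the rises against wild type were 1 among HNF4A-dependent, 5 among visceral endoderm and 0 among gut and surface epithelium genes, against 4, 11 and 6 without it. Without the trend they were 1, 7 and 2, and without the filter 2 HNF4A-dependent and 3 gut and surface epithelium genes rose. Of the members' differences, those that changed sign were all heterozygous minus wild type and passed nowhere: Cited1 was 0.10 with the replicate block. With an array left out, Hnf4a ran from -0.75 to 1.84, Gata6 from -0.023 to 0.21, Foxa2 from -0.13 to 0.10 and Cited1 from -0.20 to 0.10. Why these values moved was not tested. Settings that leave a genotype with 1 array assume that it varies like the others. The number of arrays and dim signals, as for Foxa3, limit what could be called.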
